A study of Rattus norvegicus with 2 samples.

Results

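Cluster 1 holds the cycling cardiac fibroblasts among cardiac cells of neonatal rats, and its gene expression was compared between cells given lipopolysaccharide (LPS), the endotoxin of gram-negative bacteria, and cells given saline (control). Its members were the cells with cluster number 1 in the cell tables that accompany the counts, 1295 of 11531 control cells and 1435 of 12689 LPS cells, or 2730 of 24220 in all. The authors named it Fibroblast, as they did the larger cluster 0 (6600 control and 7030 LPS cells), which is used below as the fibroblasts to compare with. Both libraries came from Sprague-Dawley rats aged 1 to 3 days, males and females pooled, with no genetic change named in the labels. Heart cells were enriched on a Percoll gradient for intrinsic cardiac adrenergic (ICA) cells, which is the cell type that the sample labels give, then cultured and given saline or LPS at 1 µg/mL for 2 h before capture with the 10X Genomics 3′ kit. The clusters were built on the expression of these same genes in both libraries together. A cell with few transcripts of cell cycle genes would therefore not be counted in cluster 1, and neither the size of the cluster nor its level of such genes against other clusters is a result. For the same reason, LPS ratios of such genes in cluster 1, alone or against cluster 0, describe the cells placed there. They cannot show whether LPS changed cycling.

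Each condition is 1 library, which leaves no replicates to test over. The pair of values in parentheses after a ratio or share is its 95% interval, exact conditional for ratios of summed unique molecular identifiers (UMIs), normal on the log scale for ratios of ratios and Clopper-Pearson for shares. Intervals cover the counting error alone, and how each library was handled enters every comparison between them. A level is the UMIs of a gene summed over the cells of a cluster and library, per 1000000 UMIs of that cluster and library (CPM). In cluster 1 the control library held 24015965 UMIs and the LPS library 20137180, with medians of 17640 (range 3682 to 50717) and 13245 (3086 to 46594) per cell. Its cells were deeper than those of cluster 0 in each library, 1.36 and 1.35 times by the median. A median of 3442 genes per control cell and 2914 per LPS cell was detected. The libraries shared 194 cell barcodes, 6 of them in cluster 1 of both.

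A cell that divides first licenses its replication origins in G1, copies its DNA in S phase, condenses and aligns its chromosomes in G2 and mitosis (M), and then separates them once the anaphase-promoting complex marks cyclins and securin for destruction. The genes for these steps are transcribed in waves, those for replication under E2F factors and those for mitosis later, under the DREAM and MuvB complexes and FOXM1. LPS is sensed by TLR4 with CD14 and MD-2, which signals through MYD88 to NF-kappaB and AP-1 and through TRIF to interferon genes, and in the heart fibroblasts are among the cells that then release chemokines.

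The levels of 5 marker genes of cycling cells are given as a description of the label, since the clustering used these genes and their order between the clusters is no test of it. *Top2a* (ENSRNOG00000053047), the topoisomerase that untangles sister chromatids, stood at 187 CPM in the control and 168 CPM in the LPS cells of cluster 1, against 8.98 and 5.78 CPM in cluster 0. *Cenpf* (ENSRNOG00000003388), a kinetochore protein of late G2 and mitosis, stood at 91.8 and 92.1 CPM against 3.9 and 3.29 CPM. The cell division cycle associated gene *Cdca3* was 16.1 times higher in cluster 1 than in cluster 0 in the control library and 19.2 times in the LPS library. For *Pclaf*, which binds the sliding clamp PCNA, these ratios were 13.4 and 20.8, and for *Esco2*, which acetylates cohesin in S phase, 12.9 and 17.1. Other leading genes by this ratio were *Sgo2*, which protects centromeric cohesion, *Prc1*, *Kif20b* and *Kif23* of the central spindle, *Ube2c* of the anaphase-promoting complex and the histone gene *Hist1h1b*.

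The groups of cycle genes stood at different levels against cluster 0, which is again a description. Mitotic kinases and cyclins were 7.51 times higher as a sum in the control library and 9.81 times in the LPS library, and centromere and kinetochore genes 7.52 and 9.19 times. Origin licensing genes were 3.22 and 3.29 times higher, and cyclins and kinases of G1 1.31 and 1.49 times. CDK inhibitors and antiproliferative genes stood below cluster 0, at 0.747 and 0.737 times its level. The mitotic groups did not stand together, with spindle and cytokinesis genes at 2.31 and 2.65 times. Genes of fibroblast identity, among them *Col1a1*, *Dcn* and *Pdgfra*, were close to cluster 0, at 0.871 and 0.87 times its level, and all 19 of them passed the minimum of 50 UMIs.

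Markers of the label ICA cells were at or near the floor. *Th*, tyrosine hydroxylase, and *Pnmt*, which forms adrenaline, had 0 UMIs in cluster 1 of both libraries, where 0 allows up to 0.125 CPM in the control and 0.149 CPM in the LPS cells (3 UMIs). *Ddc*, dopa decarboxylase, stood at 1.04 and 0.596 CPM, against 1.07 and 0.786 CPM in cluster 0. *Dbh*, dopamine beta-hydroxylase, stood at 0.708 and 0.447 CPM, from 17 and 9 UMIs. The defining genes of the labelled cell type were thus absent or nearly so from cluster 1.

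Markers of other cell types were also summed. Macrophage markers stood at 40.2 CPM in the control and 24.8 CPM in the LPS cells of cluster 1, which is 0.527% and 0.423% of their level in the macrophages of cluster 6. The most abundant of them was *Tyrobp* in the control cells, *Cd163* was at 0 in both libraries, and 0.695% and 0.279% of cells held at least 2 macrophage UMIs after thinning, against 0.682% and 0.299% in cluster 0. Cardiomyocyte markers, led by *Tnnt2*, stood at 279.9 and 232 CPM, or 1.95% and 1.56% of the cluster that the authors named for ICA cells and cardiomyocytes. Endothelial markers stood at 5.09% and 4.21% of the level in endothelial cluster 4. These 3 sums were lower in the LPS cells than in the control cells, and so were those of mural, mesothelial and Schwann cell markers, with ratios of 0.872, 0.692 and 0.24. The list of lymphocytes and red cells was higher, from 2.42 to 24.4 CPM, a ratio of 10.1 (7.68 to 13.5), and 97.4% of its LPS UMIs were of the haemoglobin gene *Hbb*, which is taken up below.

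The 150 bases before the gene start are shown for *Top2a*, a marker of the cluster, and *Cks2*, a mitotic gene whose LPS ratio differed between the clusters, because genes of mitosis stood above cluster 0 in these cells. They are RefSeq sequences of the rat build GRCr8, from the minus strand and written 5′ to 3′. Capitals mark CCAAT, the box of the factor NF-Y, and TTTGAA, the letters of the cell cycle genes homology region, on either strand (ATTGG and TTCAAA on the other).
*Top2a* chr10:84473094-84473243: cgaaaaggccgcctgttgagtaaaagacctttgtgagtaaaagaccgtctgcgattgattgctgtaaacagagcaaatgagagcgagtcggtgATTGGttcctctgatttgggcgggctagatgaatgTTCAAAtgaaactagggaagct
*Cks2* chr17:13727520-13727669: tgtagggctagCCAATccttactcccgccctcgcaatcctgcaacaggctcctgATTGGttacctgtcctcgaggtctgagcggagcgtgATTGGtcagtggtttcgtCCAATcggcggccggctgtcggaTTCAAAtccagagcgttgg

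Of 68 genes in the lists of mitotic kinases, kinetochore, spindle and anaphase-promoting complex, 58 matched a promoter in the RefSeq table. TTTGAA stood within 250 bases before the start in 24 of 58 of them (41.4%), in 2 of 31 promoters of licensing and fork genes (6.45%) and in 16% of all 27457 promoters. CCAAT stood in 65.5% of the mitotic, 61.3% of the licensing and fork and 34.3% of all promoters. By list, the CCAAT share went from 40% for centromere and kinetochore to 81.8% for the anaphase-promoting complex, and outside the cycle genes it was 53.8% for chemokines and 10.5% for the NF-kappaB group. TTTGAA was found in 7 of 11 promoters of the anaphase-promoting complex and its targets and in 12 of 21 of spindle and cytokinesis, but in 3 of 15 of centromere and kinetochore (20%) and 2 of 11 of mitotic kinases and cyclins (18.2%), close to all promoters. These lists were chosen with results known, and a match describes the letters only.

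Within cluster 1, most cells held more UMIs of G2/M genes than of S phase genes. For each cell a random 3000 of its UMIs were drawn (thinning), and those of the Seurat lists for S phase (43 genes) and G2/M (51 genes analysed) were counted. The median was 4 S phase and 9 G2/M UMIs in control cells and 5 and 9 in LPS cells, against 1 and 2 in cluster 0 of either library. The lists are not matched in size or abundance, so the split below is a range of one score and no type of cell. G2/M UMIs outnumbered S phase UMIs in 78.2% (75.9 to 80.4) of control cells and 77.6% (75.3 to 79.7) of LPS cells, which are called G2/M-led. The reverse held in 15.8% (13.8 to 17.9) and 16.1% (14.2 to 18.1), called S-led, and the rest were tied. The shares of the libraries lay within each other's intervals. They depended on the scale, since with each list's score centred and scaled over the cells 45% of control and 42.9% of LPS cells were G2/M-led.

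These shares have a background in cluster 0, whose cells also held UMIs of both lists. The source of those UMIs was not tested. In cluster 0, 58.1% of control and 60.8% of LPS cells were G2/M-led on the same count, with 74.9% and 74.1% of its cells within 3 UMIs of the cut. In cluster 1, 28.2% and 26.7% lay that near. Summed over both lists and without thinning, cluster 1 cells held a median of 46.9 (control) and 49.5 (LPS) cycle UMIs per 10000, and cluster 0 cells 11.7 and 11.5. The 5th percentile of cluster 1 was reached by 190 control cells (2.88%) and 268 LPS cells (3.81%) of cluster 0.

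**Figure D1:**
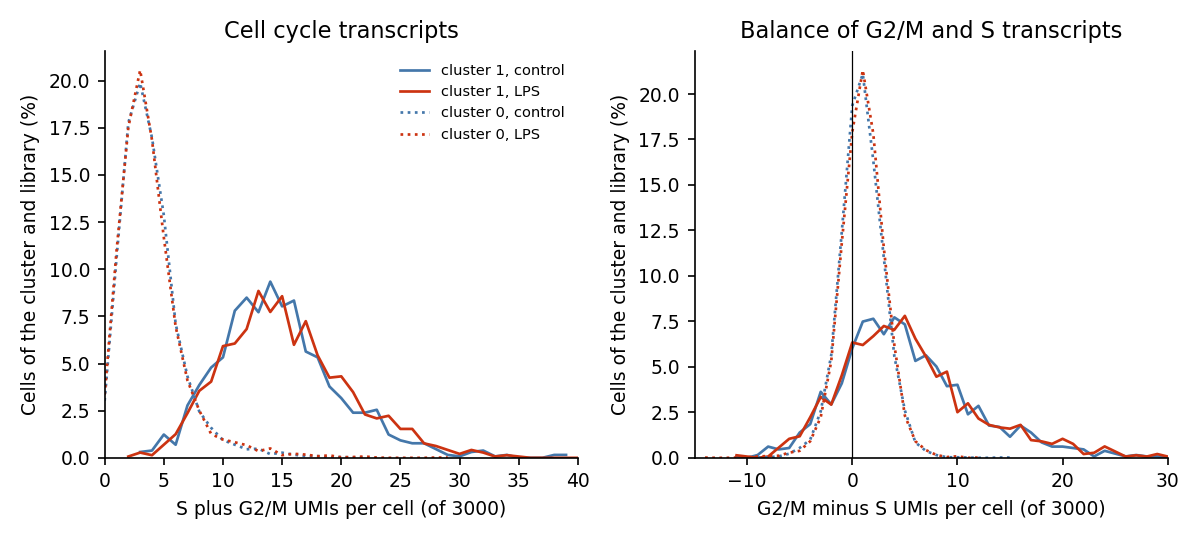
Distribution over cells of the summed S phase and G2/M UMIs (left) and of G2/M minus S phase UMIs (right) per cell thinned to 3000 UMIs, as percent of the cells of each cluster and library. Control and LPS curves of cluster 1 lie close to each other and to the right of cluster 0, with medians of 9 G2/M UMIs per cell against 2.

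The plot of S phase and G2/M UMIs per cell shows the same order of the clusters in both libraries. The control and LPS curves of cluster 1 are close but not the same.

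Most genes of the cell cycle differed little between LPS and control cells of cluster 1. Genes of this kind placed the cells in the cluster, so small differences are a description of the cells kept in it. A ratio below is the LPS level over the control level, and its log2 was taken with 0.5 UMI added to each sum. Among all 10312 genes with at least 50 UMIs in cluster 1, 332 (3.22%) were at least 2-fold higher and 515 (4.99%) at least 2-fold lower in LPS cells, and the median log2 ratio was -0.07. These counts depend on the minimum, since with at least 200 UMIs 230 genes were higher and 202 lower, and with at least 20 UMIs 394 and 857. Of the 11 licensing, 22 replication fork and 7 nucleotide supply genes with at least 50 UMIs, none was past 2-fold in either direction. The sum of the licensing genes, which load the MCM helicase, had a ratio of 1.04 (1.01 to 1.06). The helicase subunits *Mcm2* to *Mcm7* had ratios from 0.915 (*Mcm5*) to 1.15 (*Mcm7*). *Cdt1*, the loader that is destroyed once S phase begins, went from 484 to 293 UMIs, a ratio of 0.722 (0.622 to 0.836), and its inhibitor *Gmnn* (geminin) had 1.1 (1.04 to 1.17).

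Fork genes were as even. *Pcna* (ENSRNOG00000021264), the sliding clamp, stood at 124 CPM in control and 146 CPM in LPS cells, a ratio of 1.17 (1.11 to 1.23). *Pclaf* had 1.24 (1.11 to 1.39) and the flap nuclease *Fen1* 1.3 (1.19 to 1.43), while the clamp loader subunit *Rfc5* had 0.717 (0.661 to 0.777). *Fen1* and *Rfc5* were the ends of the fork group, whose median log2 ratio was -0.03, against -0.10 in cluster 0. *Tyms*, which makes thymidylate, had 1.23 (1.08 to 1.41), and *Dut*, which removes dUTP, 1.04 (1.01 to 1.08). *Hells*, a chromatin remodeller of S phase, had the highest ratio of the S phase chromatin group, 1.59 (1.4 to 1.81).

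The groups of mitotic genes differed in how cluster 0 moved. Their sums were lower than control there for kinases and cyclins, kinetochore and spindle, and higher for the anaphase-promoting complex and for the G2/M score list, which had ratios of 1.04 (1.03 to 1.05) in cluster 1 and 1.03 (1.02 to 1.04) in cluster 0, or 1.01 (0.999 to 1.03). As a sum, mitotic kinases and cyclins had a ratio of 1.05 (1.02 to 1.07) in cluster 1 and 0.803 (0.774 to 0.833) in cluster 0, and the ratio of these ratios was 1.31 (1.25 to 1.36). *Cdk1* (ENSRNOG00000000632), the kinase that drives entry into mitosis, went from 147 to 155 CPM, a log2 ratio of 0.08 against -0.54 in cluster 0. *Aurka* and *Plk1*, kinases of the spindle poles, had log2 ratios of 0.42 and 0.33 against -0.04 and -0.16, and *Ccnb1*, the mitotic cyclin, 0.25 against -0.02. Each of these thus stood higher relative to control in cluster 1 than in cluster 0. Since mitotic genes helped to separate the clusters, this order is a description and no test of a different response. The median log2 ratio of the group was -0.05 in cluster 1 and -0.21 in cluster 0. Of 15 genes in the group 1 was past 2-fold, the phosphatase *Cdc25b*, lower at 56 and 20 UMIs (log2 -1.21), where 4.99% of all genes were at least 2-fold lower. The marker *Top2a* had a ratio of 0.897 (0.858 to 0.939) and *Cenpf* 1.0 (0.942 to 1.07), with log2 values of -0.64 and -0.24 in cluster 0.

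None of the 16 kinetochore and 23 spindle genes was past 2-fold, where 3.22% of all genes were at least 2-fold higher and 4.99% lower. *Spc24*, of the NDC80 complex, went from 193 to 172 CPM in cluster 1 (log2 -0.17) and had a log2 ratio of -0.87 in cluster 0, and *Mad2l1*, of the spindle checkpoint, had 0.35 and 0.15. The sum of the spindle group was lower in both clusters, with ratios of 0.882 (0.875 to 0.889) in cluster 1 and 0.769 (0.764 to 0.775) in cluster 0, and 43.1% of its control UMIs in cluster 1 came from the tubulin *Tubb5*. For the anaphase-promoting complex and its targets the order of the sums was the other way, with ratios of 1.17 (1.15 to 1.19) in cluster 1 and 1.32 (1.3 to 1.34) in cluster 0. Their median log2 ratio kept the order of the other mitotic groups, at 0.11 in cluster 1 and -0.11 in cluster 0. *Cks2* (ENSRNOG00000014130), the small kinase subunit whose promoter is printed above, went from 167 to 257 CPM, a ratio of 1.54 (1.48 to 1.61), and *Ube2s*, which extends ubiquitin chains for the complex, from 263 to 334 CPM. The other 12 genes of the group lay below *Cks2* in ratio.

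Upstream of S phase, cyclins of G1 stood within 2-fold on either side of the control level. *Ccne1*, the cyclin that opens S phase, had a ratio of 1.7 (1.52 to 1.9), and *Ccnd1*, which mitogens induce, 1.53 (1.32 to 1.78), while *Ccnd3*, the most abundant of the group, had 0.926 (0.875 to 0.98). None of the 9 genes of the group was past 2-fold. Of 17 inhibitors of cyclin-dependent kinases and genes of growth arrest, 4 were at least 2-fold higher and 1 lower, against 3.22% and 4.99% of all genes. The 4 were the antiproliferative genes *Btg1* (2.04) and *Btg2* (2.21), *Cdkn2b* (2.05), which encodes p15, and *Plk3* (2.21). *Cdkn1c* (ENSRNOG00000059500), which encodes p57, was lower, from 106 CPM (2556 UMIs) to 30.4 CPM (613 UMIs), a ratio of 0.286 (0.261 to 0.313). Cluster 0 gave log2 ratios of 1.05, 1.19, 0.92, 0.96 and -1.71 for these 5 genes. *Cdkn1a*, which encodes p21, was within 2-fold at 0.876 (0.83 to 0.924). *Cdkn2c*, which encodes p18, had a log2 ratio of -0.75 in cluster 1 and -1.26 in cluster 0.

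In contrast to most cycle genes, chemokines were far higher in LPS cells. Their sum went from 999.9 to 14056 CPM, a ratio of 14.1 (13.9 to 14.2), and 14 of 18 were at least 2-fold higher, against 3.22% of all genes. *Ccl2* (ENSRNOG00000007159), which draws monocytes through CCR2, went from 409 CPM (9833 UMIs) to 7541 CPM (151852 UMIs), a ratio of 18.4 (18 to 18.8). After thinning, a *Ccl2* UMI was seen in 58.2% of control and 100% of LPS cells of cluster 1. *Cxcl1* (ENSRNOG00000002802), a neutrophil chemokine that binds CXCR2, went from 108 to 2199 CPM, with a UMI in 22.9% and 97.6% of cells. Nearly every LPS cell of the cluster thus held UMIs of both. In LPS cells of endothelial cluster 4 these shares were 99.7% and 83.9%. Expression there and free RNA in the droplets were not separated, so no background share is given for these 2 genes. The part of free RNA in them was not tested. *Ccl7*, another ligand of CCR2, had a ratio of 13.4 (12.9 to 13.9), *Cxcl6* 14.1 (13.5 to 14.7) and *Cxcl3* 17.2 (16 to 18.6).

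Chemokines that were rare in control cells had the highest ratios and the widest intervals. *Ccl20*, the ligand of CCR6, went from 3 to 787 UMIs, a ratio of 313 (107 to 1520.4), and *Cx3cl1* (fractalkine) from 79 to 1763 UMIs, a ratio of 26.6 (21.2 to 33.8). *Cxcl10*, which interferons induce, had a ratio of 27.8 (21.7 to 36.1). The level of these 3 genes in LPS cells of cluster 1 was 68.4%, 250.1% and 107% of that in LPS macrophages. *Cxcl12*, which keeps progenitor cells in place, was within 2-fold at 1.62 (1.51 to 1.73), and *Ccl11* (eotaxin) was lower at 0.587 (0.375 to 0.904).

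Some inflammatory genes were set against macrophages, since free RNA in the droplets can give UMIs in cells that do not express a gene. *Il1b*, *Ccl3* and *Ccl4* had 518, 1560 and 937 UMIs in the LPS cells and ratios of 77.2, 29.5 and 58.8. Their LPS levels were 0.325%, 0.361% and 0.398% of those in macrophages, where macrophage markers stood at 0.423%. A *Ccl3* UMI was seen in 21.2% of cluster 1 LPS cells, 18.2% of cluster 0 and 19.97% of endothelial cluster 4, at median depths of 13245, 9822 and 9972 UMIs before thinning. These 3 genes, among them 2 of the 14 chemokines counted above, thus stood at a share of the macrophage level below that of the macrophage markers. *Cxcl2* and *Csf3* stood at 0.83% and 1.51% of the macrophage level, above that share, with ratios of 58.3 (38.7 to 92.4) and 268 (91.2 to 1301). A UMI of *Cxcl2* was seen in 14.8% of LPS cells of cluster 1 and 16.8% of cluster 4, and of *Csf3* in 7.87% and 9.42%. The part of macrophage RNA in these 5 genes was not tested.

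**Figure D2:**
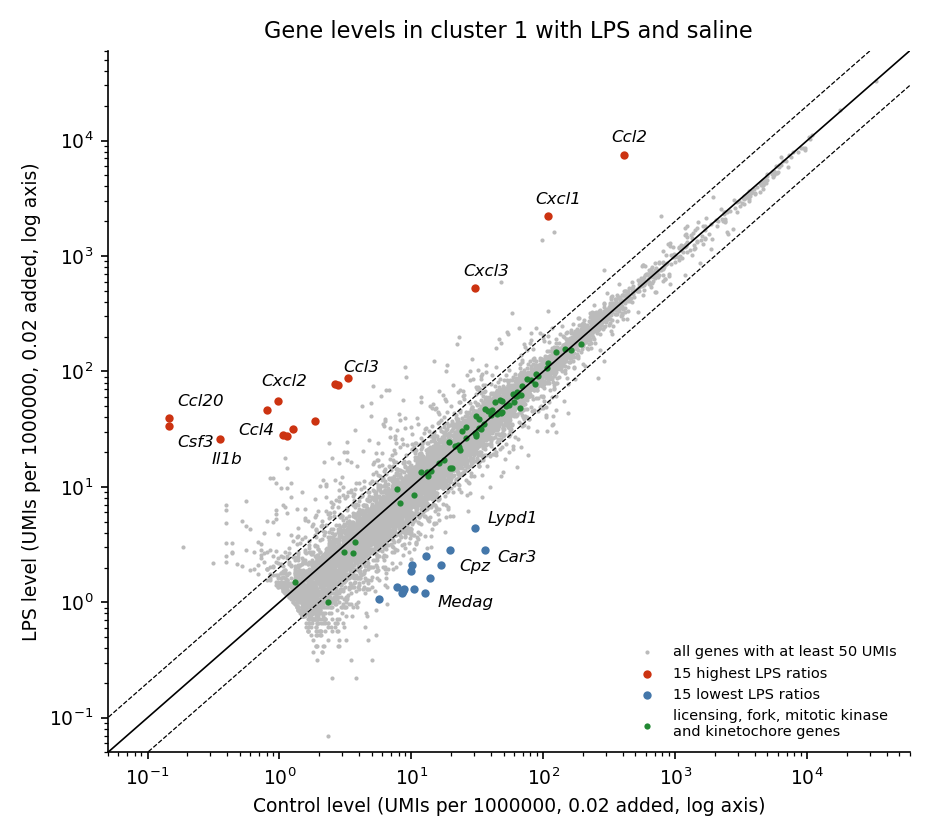
Level of each gene in control (horizontal) and LPS cells (vertical) of cluster 1, in UMIs per 1000000 on log axes with 0.02 added, for the 10312 genes with at least 50 UMIs, with the diagonal solid and 2-fold lines dashed. *Ccl2* lies above the diagonal at 409 and 7541, *Car3* lies below it at 35.9 and 2.83, and the licensing, fork, mitotic kinase and kinetochore genes in green lie along it.

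The plot of gene levels in cluster 1 puts *Ccl20* and *Csf3* farthest above the diagonal and *Ccl2* highest on the LPS axis among the genes written in it. The licensing, fork, mitotic kinase and kinetochore genes lie along the diagonal, with *Cdc25b* the one of them beyond a dashed line.

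The sequences before *Cxcl1* and *Cxcl2* are shown because both genes stood among the 15 with the highest ratios. Capitals mark GGG and TTTCC with any 2 bases between them, one spelling of the kappaB site that NF-kappaB binds, or its reverse complement, in 150 bases of GRCr8 from RefSeq, minus strand, 5′ to 3′. No match overlaps another in the sequences printed.
*Cxcl1* chr14:17479322-17479471: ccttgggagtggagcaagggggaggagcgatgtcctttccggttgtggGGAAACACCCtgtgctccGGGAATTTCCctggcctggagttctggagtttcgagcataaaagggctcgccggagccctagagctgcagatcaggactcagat
*Cxcl2* chr14:17467256-17467405: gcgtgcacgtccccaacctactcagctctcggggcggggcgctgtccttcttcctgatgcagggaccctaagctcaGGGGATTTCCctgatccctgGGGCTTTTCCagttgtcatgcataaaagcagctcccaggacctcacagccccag

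Within 250 bases before the start, these letters stood in 4 of 9 matched promoters of the genes with the highest ratios (44.4%), in 0 of 11 of those with the lowest, in 5 of 19 of the NF-kappaB group (26.3%) and in 1.28% of all 27457. They stood in 1 of 58 mitotic promoters. The genes were chosen by their ratios, so these shares are a description.

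Genes of NF-kappaB and its feedback were at least 2-fold higher in 16 of 19 cases, against 3.22% of all genes. Their median log2 ratio was 2.14 (2.10 in cluster 0). *Nfkbia* (ENSRNOG00000007390), the inhibitor that NF-kappaB itself induces, went from 47.4 to 592 CPM, a ratio of 12.5 (11.7 to 13.3), and had a UMI in 12.7% of control and 79.8% of LPS cells after thinning. The subunits *Nfkb2* (10.5), *Relb* (4.49), *Nfkb1* (3.63) and *Rela* (2.17) were all at least 2-fold higher. So were the adhesion genes *Vcam1*, at 14.6 (12.1 to 17.6), and *Icam1*, at 12.2 (10.6 to 14.1), and *Birc3*, an inhibitor of apoptosis, at 25.4 (17.6 to 38). *Zc3h12a*, an RNase that limits cytokine transcripts, had 10.2 (8.68 to 12.1). *Sod2*, whose UMIs make up 87.1% of the group in control cells, was within 2-fold at 1.67 (1.65 to 1.69), and *Tnfaip8* was lower at 0.807 (0.683 to 0.953). The deubiquitinase *Tnfaip3* was under the minimum, with 3 and 36 UMIs.

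Of the cytokines, 6 of 7 with at least 50 UMIs were at least 2-fold higher, against 3.22% of all genes. *Il1b*, described above, was among the 6. *Csf1*, the growth factor of macrophages, went from 31.9 to 102 CPM, a ratio of 3.19 (2.93 to 3.47), and had a UMI in 24.9% of LPS cells. *Il6* went from 12 to 101 UMIs, a ratio of 10.04 (5.5 to 20.1), and *Il11*, a cytokine of fibroblasts, from 25 to 49, a ratio of 2.34 (1.42 to 3.95). *Il33*, an alarmin stored in the nucleus, was the exception at 0.591 (0.50 to 0.697). *Tnf* went from 5 to 7 UMIs, 0.208 and 0.348 CPM, and no difference was detectable at this depth. *Il1a* went from 0 to 18 UMIs and *Csf2* from 0 to 4.

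In the list of LPS sensing, 4 of 9 genes were at least 2-fold higher, against 3.22% of all genes, and the receptor was near the floor. *Tlr4* had 22 control and 13 LPS UMIs over all cells of cluster 1. Its co-receptor *Cd14* had a ratio of 0.97 (0.792 to 1.19) and the adaptor *Myd88* 1.08 (0.927 to 1.26), both within 2-fold. *Tlr2*, the receptor of bacterial lipoproteins, went from 4.96 to 53.4 CPM, a ratio of 10.8 (8.92 to 13.1), and the kinase *Ripk2*, which serves NOD receptors, from 14.9 to 124 CPM, a ratio of 8.29 (7.42 to 9.29). *Irak3*, which restrains the pathway, had 2.8 (2.48 to 3.17) and *Map3k8* 2.54 (2.11 to 3.08). Of TLR4, CD14 and MD-2, *Cd14* alone passed the minimum of 50 UMIs, and the gene for MD-2 was not analysed here.

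Interferon response genes were at least 2-fold higher in 16 of 19 cases, against 3.22% of all genes, and their sum went from 95.7 to 375 CPM. *Isg15* (ENSRNOG00000021802), a ubiquitin-like modifier, went from 18.5 to 114 CPM, a ratio of 6.16 (5.57 to 6.84). The guanylate-binding proteins *Gbp5* and *Gbp2* had ratios of 27.2 (18.2 to 42.4) and 5.85 (4.9 to 7.01), and the factor *Irf1* 4.38 (3.76 to 5.12). *Irf7*, *Irf9* and *Stat2*, which carry the response to type I interferon, were within 2-fold (1.88, 1.7 and 1.8). *Ifnb1* had 0 UMIs in both libraries, where 0 allows up to 0.125 and 0.149 CPM.

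Among secreted mediators and matrix enzymes, 10 of 19 were at least 2-fold higher, against 3.22% of all genes. *Ptgs2*, the inducible cyclooxygenase, went from 44 to 750 UMIs, a ratio of 20.3 (15 to 28.2), and *Ptges*, the prostaglandin E synthase that works with it, had 4.14 (3.87 to 4.43). *Pla2g2a*, a secreted phospholipase, went from 785 to 2237 CPM, a ratio of 2.85 (2.8 to 2.9). *Has2*, which makes hyaluronan, had 8.24 (6.6 to 10.4), *Serpinb2* 24.5 (16.6 to 37.5) and *Tnfaip6*, which binds hyaluronan, 8.79 (8.03 to 9.62). *Has1*, another hyaluronan synthase, went from 14 to 38 UMIs, a ratio of 3.24 (1.71 to 6.47). *Lcn2*, *Mmp9* and *Timp1* were within 2-fold (1.34, 1.18 and 1.22), and *Adamts1* was lower at 0.527 (0.397 to 0.694).

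Of 17 immediate early factors, 7 were at least 2-fold higher and 1 was lower, against 3.22% and 4.99% of all genes. *Fos* went from 48 to 12.5 CPM, a ratio of 0.261 (0.227 to 0.299), and *Egr1* had 0.755 (0.683 to 0.835). The AP-1 factor *Junb* had 2.24 (2.11 to 2.38), *Myc* 2.37 (2.14 to 2.63) and *Cebpb*, a factor of the acute phase, 2.62 (2.55 to 2.69). *Maff* went from 155 to 1394 UMIs, a ratio of 10.7 (9.08 to 12.7). The rapid factors *Fos* and *Egr1* thus stood lower, and *Maff* and *Cebpb* higher, after 2 h. Among 13 feedback genes, *Socs1* (2.31), *Cish* (2.47) and *Spry4* (2.09) were at least 2-fold higher, and *Dusp10*, a phosphatase of JNK and p38, was lower at 0.36 (0.268 to 0.478).

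Growth factors and their receptors were mostly lower, with a median log2 ratio of -0.38 over 22 genes, 4 at least 2-fold lower and 1 higher, against 4.99% and 3.22% of all genes. *Igf1* (ENSRNOG00000004517), a mitogen of fibroblasts and cardiomyocytes, went from 125 to 46.1 CPM, a ratio of 0.369 (0.343 to 0.398). *Tgfb3* had 0.233 (0.191 to 0.283), the receptor *Fgfr1* 0.268 (0.189 to 0.373) and the binding protein *Igfbp5* 0.463 (0.429 to 0.498). Their sum, 27.9% of it in control cells from *Igfbp3* (ratio 1.55), had a ratio of 1.02, on the other side of 1 from the median. *Ereg*, a ligand of the EGF receptor, was the gene past 2-fold in the other direction, from 9 to 127 UMIs. *Tgfb1* was within 2-fold at 1.39 (1.28 to 1.5), and *Pdgfra*, the receptor that marks cardiac fibroblasts, at 1.93 (1.83 to 2.03).

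Genes of fibroblast identity had a summed ratio of 0.879 (0.875 to 0.883), with 2 of 19 at least 2-fold lower and none higher, against 4.99% and 3.22% of all genes. *Col1a1* had a ratio of 0.825 (0.817 to 0.832), *Dcn* 1.24 (1.23 to 1.26), *Fn1* 0.998 (0.976 to 1.02) and *Postn* 0.955 (0.935 to 0.975). *Col1a2* (0.497) and *Col5a1* (0.41) were the genes past 2-fold, and *Tcf21*, a factor of the fibroblast lineage, had 0.559 (0.516 to 0.605). Of 11 genes of activated fibroblasts, the collagen receptor *Itga11* was lower at 0.282 (0.176 to 0.435), while *Acta2* had 1.13 (1.09 to 1.16).

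**Figure D3:**
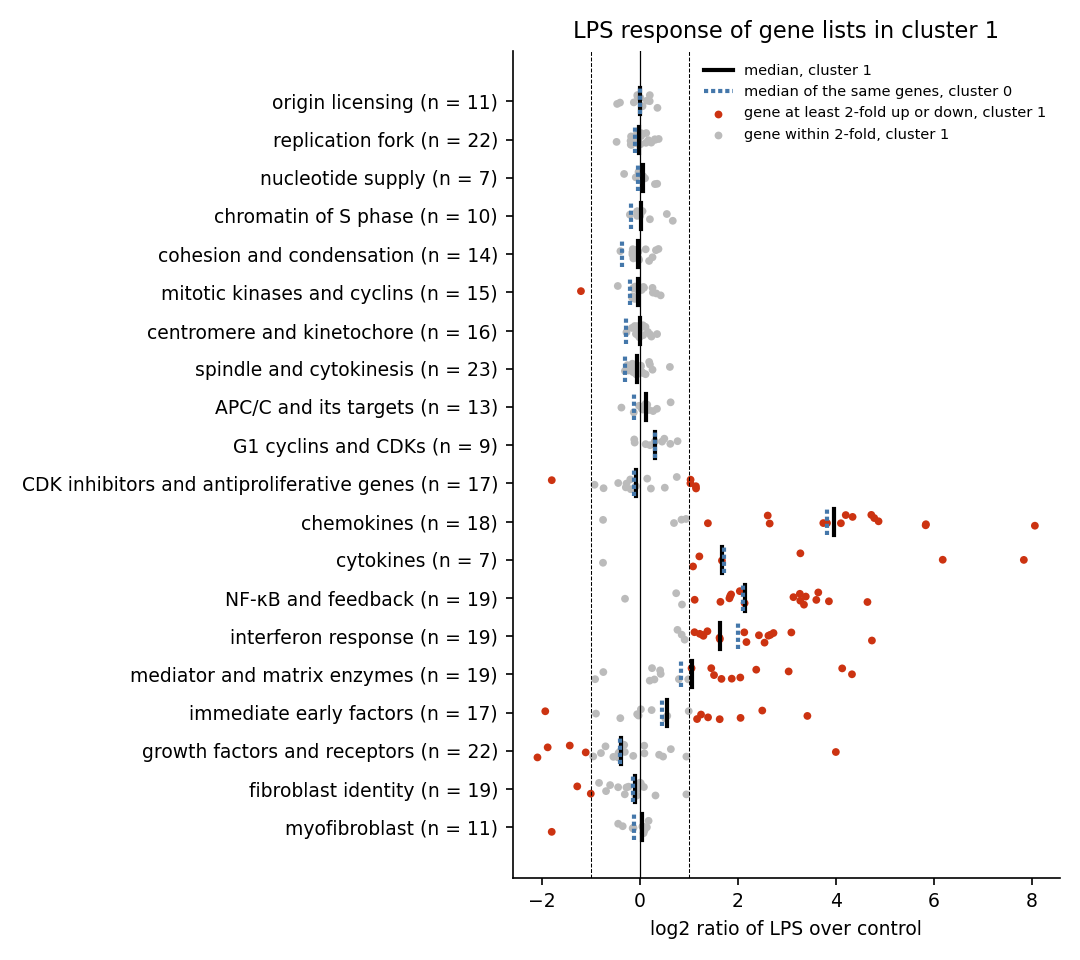
log2 ratio of LPS over control for each gene with at least 50 UMIs in cluster 1 (points), grouped by list, with the list's median in cluster 1 (black) and cluster 0 (blue, dotted). Medians of the cycle lists lie near 0, from -0.09 for CDK inhibitors and antiproliferative genes to 0.30 for G1 cyclins, and chemokines lie highest at 3.96.

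The plot of lists shows how the groups compare. The lists of chemokines, cytokines, NF-kappaB, interferon response and mediators spread widely with medians above 1. In the cycle lists every gene but *Cdc25b* and 5 of the CDK inhibitors and antiproliferative genes is within 2-fold. Of all genes, 3.22% were at least 2-fold higher and 4.99% lower. The median of cluster 0 lies below that of cluster 1 for the cohesion, kinetochore and spindle lists, at -0.37, -0.28 and -0.30.

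The genes with the lowest ratios in cluster 1, among those detected in 10% or more of either library's cells, were of other kinds. *Car3* (ENSRNOG00000010079), a carbonic anhydrase, went from 863 to 57 UMIs, 35.9 to 2.83 CPM, a ratio of 0.0788 (0.0592 to 0.103). *Medag*, a gene of adipocyte development, went from 305 to 24 UMIs, a ratio of 0.0938 (0.0592 to 0.142), and *Pik3ip1*, which restrains PI3 kinase, from 253 to 26, a ratio of 0.123 (0.0785 to 0.184). *Map2k6*, a kinase that activates p38, went from 400 to 42, a ratio of 0.125 (0.0889 to 0.172). The others among the 15 lowest were *Fam180a*, *Sned1*, *Cpz*, *Pcp4l1*, *Lypd1*, *Clec3b*, *Gprc5c*, *Flrt3*, *Ston1*, *Slc6a7* and *Ephb3*, with ratios from 0.115 to 0.207. In cluster 0 the log2 ratios of all 15 lay between -3.73 and -2.30, so that each was also lower there. Of the 332 genes at least 2-fold higher in cluster 1, 287 were so in cluster 0 too, and of the 515 lower, 398. How many of all 10312 genes were past 2-fold in cluster 0 was not counted, so this overlap has no background share and is a description.

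The response of cluster 1 was then set against that of cluster 0, gene by gene, as the ratio of their LPS ratios. The 2 clusters share their libraries, and for 90% of the 7991 genes with at least 200 UMIs in each, the log2 of this ratio lay between -0.25 and 0.31. It was at least 2-fold above 1 for 6 genes (0.0751%) and below for 1 (0.0125%). Of the 6, 4 were haemoglobin rows, 1 was *LOC679342* and 1 was *Ccl20*, whose interval holds 1 at 2.24 (0.743 to 6.74) and which is left out of the ranks below for that reason. Without the 2-fold rule, the counting interval excluded 1 for 943 of the 7991 genes above and 570 below. The median log2 of this ratio over the 7991 genes was 0.015. These intervals cover counting error alone, so the counts are not numbers of genes that respond differently in the cycling cells.

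The 1 gene below was *Bmp2* (ENSRNOG00000021276), a bone morphogenetic protein. It went from 193 to 863 UMIs in cluster 1, 8.04 to 42.9 CPM, a ratio of 5.33 (4.56 to 6.27), and from 7.14 to 78.8 CPM in cluster 0, a ratio of 11 (10.2 to 12), which gives 0.483 (0.405 to 0.575). *Bmp2* was thus higher with LPS in both clusters and less so in the cycling cells. The same held for *Ch25h*, which makes 25-hydroxycholesterol, at 0.544 (0.329 to 0.901), *Serpinb2* at 0.574 (0.376 to 0.876), *Cks2* at 0.606 (0.57 to 0.645) and *Tnfaip6* at 0.633 (0.574 to 0.699). Levels of *Cks2* in LPS cells were 257 CPM in cluster 1 and 74.7 CPM in cluster 0. For *AABR07013157.1* and *Fcrla*, also among the 10 lowest, 1 cell held 21.3% and 28.5% of the LPS UMIs in cluster 1. *Zfp791*, *Taf1c* and *Brwd1* complete the 10, at 0.636, 0.654 and 0.655.

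On the other side, several genes of cell division were lower with LPS in cluster 0 and less so in cluster 1. The clusters were separated by genes of this kind, so for division genes, *Cks2* included, the difference between clusters is a description. *Cit* (ENSRNOG00000001143), citron kinase of the cleavage furrow, had log2 ratios of -1.04 in cluster 1 and -1.97 in cluster 0, a ratio of ratios of 1.9 (1.49 to 2.43). *Fam83d*, a spindle protein, had -0.12 and -0.97, which gives 1.8 (1.42 to 2.29), and *Arhgef39*, a guanine nucleotide exchange factor, -0.52 and -1.40, which gives 1.84 (1.29 to 2.62). *LOC679342* stood at 2.05 (1.6 to 2.62) and *Ccdc163* at 1.84 (1.3 to 2.62). *Cd24*, at 1.8 (1.4 to 2.31), had 22.9% of its LPS UMIs in cluster 1 in 1 cell.

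The 4 highest ratios of ratios belonged to haemoglobin genes, and most of their LPS UMIs in cluster 1 lay in 1 cell. *LOC100134871*, *Hbb* and both rows of *Hba-a2* had ratios of ratios from 25.1 to 57.5. A single LPS cell of cluster 1 held 1801 of 2019 haemoglobin UMIs (89.2%), while no control cell of the cluster held more than 3 of 358. In cluster 0 it was a control cell that held 3015 of 6728. Without the cell of cluster 1 the log2 ratio of ratios of these 4 rows lay between 1.69 and 2.38. These genes mark red cells and are not described further as a response.

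**Figure D4:**
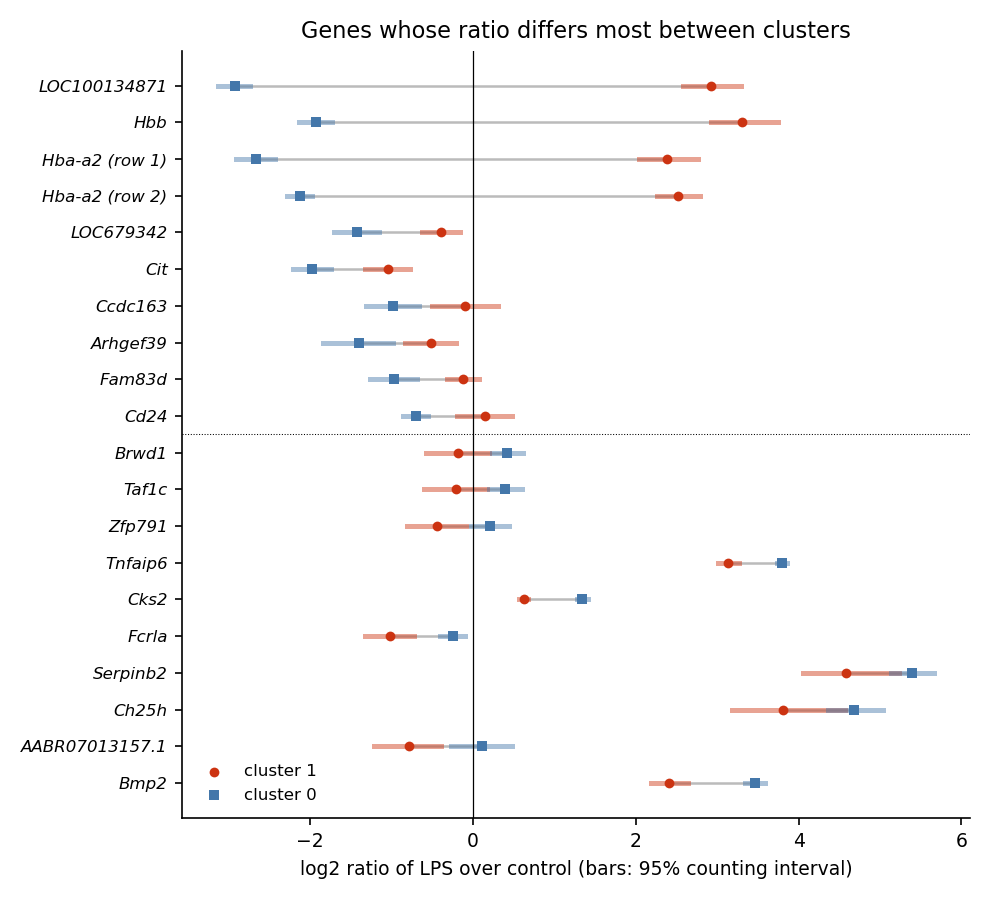
log2 ratio of LPS over control with its 95% counting interval in cluster 1 and in cluster 0, for the 10 genes with the highest and the 10 with the lowest ratio of these ratios. *Bmp2* stands at 2.41 in cluster 1 and 3.46 in cluster 0, and *Cit* at -1.04 and -1.97, while the haemoglobin rows lie on opposite sides of 0.

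The plot of both clusters shows that, apart from the haemoglobin rows, none of these genes points in opposite directions with both intervals clear of 0. For most of them the clusters differ in the size of a ratio of the same sign, or 1 of the clusters lies near 0.

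The LPS response was also compared between G2/M-led (1013 control, 1113 LPS) and S-led (204 and 231) cells of cluster 1. The chemokines as a sum had ratios of 14.2 (14 to 14.5) and 13 (12.6 to 13.4), and G2/M-led over S-led gave 1.1 (1.06 to 1.14). For *Ccl2* this was 1.16 (1.1 to 1.22) and for *Cxcl1* 1.16 (1.03 to 1.29). *Ccl7* gave 1.01 (0.911 to 1.13), *Cxcl6* 1.08 (0.955 to 1.22), *Cxcl16* 0.992 (0.876 to 1.12) and *Cxcl3* 0.854 (0.683 to 1.07), each with an interval that holds 1. The chemokine sum, 53.6% of it in LPS cells from *Ccl2*, was thus higher with LPS in both ranges, and single chemokines did not all share the order of the sum. The list of NF-kappaB and feedback had 2.28 (2.25 to 2.3) and 2.25 (2.19 to 2.32). For the interferon response the order was the other way, with 3.81 (3.62 to 4.01) and 4.91 (4.3 to 5.61), or 0.777 (0.675 to 0.895). *Isg15* had 40 control and 369 LPS UMIs in S-led cells and 371 and 1809 in G2/M-led cells, which gives 0.546 (0.388 to 0.77). It made up 30.4% of the list's LPS UMIs in cluster 1. *Gbp2* gave 0.489 (0.271 to 0.885), while *Irf9* gave 1.43 (0.787 to 2.58) and *Irf7* 1.22 (0.586 to 2.55), both with intervals that hold 1. Single interferon genes thus did not all share the order of the sum. The sum of origin licensing genes had 1.14 (1.08 to 1.2) in S-led and 1.0 (0.972 to 1.03) in G2/M-led cells, but this list shares genes with those that split the cells.

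Other quantities also differed between the libraries within cluster 1. Mitochondrial transcripts went from 35194 to 31234 CPM and heat shock genes from 2648 to 2411 CPM. *Hsp90ab1* made up 55.3% of the heat shock UMIs in control cells. The UMIs per cell were lower in the LPS library, as given above, in cluster 0 as well as in cluster 1. The part of these differences in the ratios of single genes was not tested.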

How the data were processed

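Raw UMI counts per gene and cell barcode were deposited by the authors without normalization, with the cluster and cell type of each cell. The submitters' processing notes name Cell Ranger 2.2.0 and Seurat 2.3.4, and in the study's methods the clusters come from FindClusters (resolution 0.5) after RunCCA. The genome build of the counts is not given in the sources used here. All barcodes of the deposited tables were kept, with no further filter on cells. No doublet caller was run, and an alternative dropped the 8% of cells of highest UMI total.

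UMIs were summed per gene, cluster and library with pandas 2.3.3, numpy 2.4.6 and scipy 1.17.1 under Python 3.11.15, and figures were drawn with matplotlib 3.10.9. The cluster is a single sample in each condition. The table holds 25399 genes, and 125 symbols stand on more than 1 row. Rows were kept apart by identifier. One gene of the lists is not reported here. Of 496 listed genes in 35 lists, 481 were matched. Ratios of ratios have normal intervals on the log scale. Cells were thinned without replacement to 3000 UMIs (seed 1), and no cell of cluster 1 fell below. The procedure was tested on simulated data that hold counting error alone, with no spread between cells, cultures or libraries.

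Named genes were the 15 with the highest and the 15 with the lowest log2 ratio among genes with at least 50 UMIs in cluster 1 and a UMI in at least 10% of cells of a library, the 10 at each end of the ratio of ratios among genes with at least 200 UMIs in each cluster and an interval that excludes 1, and list members. The members, the lists and this rule were chosen with earlier results of these data known. In the tables of cells, 11 clusters are given. Alternatives were other UMI minimums, 1 UMI added, thinning to 1500 UMIs or none, filters on cells and scaling to a median of 0.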

Additional observations from a re-analysis of the deposited data

Results flagged for a closer look

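The directions of the LPS ratio in clusters 1 and 0 were compared for the rows of the 481 matched listed genes, for the named and leading genes and for all 35 lists. They were opposite, with both 95% counting intervals clear of 1, for 11 gene rows and for 7 of the 35 summed lists. None of these differences was tested over replicates. The ratios of ratios were 57.5 for *LOC100134871*, 37.7 for *Hbb*, and 33.0 and 25.1 for the rows of *Hba-a2*, most of whose LPS UMIs in cluster 1 lie in the 1 cell described above. Of the other 7 genes, all above control in cluster 1 and below it in cluster 0, the ratio of ratios was 1.54 for *Cdk1*, 1.26 for *Cdca8* of the chromosomal passenger complex, 1.18 for thymidine kinase *Tk1*, 1.18 for the heterochromatin protein *Cbx5*, 1.17 for the primase *Prim1*, 1.16 for *Tagln* and 1.13 for the tropomyosin *Tpm2*. The list of lymphocytes and red cells, whose UMIs are nearly all *Hbb*, stood at 38.1. Mitotic kinases and cyclins stood at 1.31, cyclins and kinases of G1 at 1.14, nucleotide supply at 1.10 and chromatin of S phase at 1.08. For these 4 lists the sum was above the control level in cluster 1 and below it in cluster 0. Cycle genes helped to separate the clusters, so for them the opposite directions are a description and no test of the response. Myofibroblast genes stood at 1.07 and growth factor receptors and ligands at 1.05, with ratios of 1.02 (1.01 to 1.03) and 1.02 (1.01 to 1.04) in cluster 1. Without cells that hold at least 2 UMIs of another type's markers, the log2 ratios of these sums in cluster 1 went from 0.024 to 0.0050 and from 0.034 to 0.012. After scaling each cluster to a median log2 ratio of 0, which added 0.09 in cluster 0, the cluster 0 sums of all these lists but mitotic kinases and cyclins and lymphocytes and red cells also stood above the control level.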

How the results depend on the processing

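No paired analysis was possible because neither condition has a second library. In all, 623 values of 89 results were computed under 14 settings, and the 30 named genes with the highest and lowest ratios kept their sign under the 7 settings run for them. The size moved for some of these genes. The log2 ratio lay between 3.49 and 4.93 for *Ptgs2* and between -4.90 and -2.59 for *Clec3b*, but between 4.18 and 4.23 for *Ccl2*. With a minimum of 20 UMIs 394 genes were at least 2-fold higher and 857 lower, and with 200 UMIs 230 higher and 202 lower, so that the larger count changed sides from the 332 and 515 at 50 UMIs. The count of genes higher was 328 without the cell rich in haemoglobin. Scaling to a median of 0 added 0.03 to the log2 ratios of cluster 1 and 0.09 to those of cluster 0, which gave 0.10 for the S phase score, 0.087 for the G2/M score, 3.84 for chemokines and -0.16 for fibroblast identity. Chemokines stood at 3.85 and fibroblast identity at -0.20 in thinned cells, and at 3.84 and -0.20 without cells that hold at least 2 UMIs of another type's markers. That filter left 949 control and 1154 LPS cells of cluster 1. It reversed the log2 ratio of lymphocytes and red cells in cluster 1 (-0.13) and the log2 ratio of ratios between the clusters of *Hbb* (-0.16), *Hba-a2* (-0.34 and -0.11) and *AABR07013157.1* (0.41). The markers it used include *Hbb*, so cells rich in haemoglobin were left out by rule. For that list and the haemoglobin rows the reversal is therefore no check of the ratios. Nucleotide supply turned to -0.0050 with thinning, close to 0 on either side. The cause of the other shifts was not tested. The share of G2/M-led cells was 72.0% in control and 73.2% in LPS cells when thinned to 1500 UMIs, 88.6% and 85.5% not thinned, 45% and 42.9% with scaled scores, and 87.8% and 88.2% without cells near the cut.

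Depth limits the genes that are rare in either library, such as *Tnf* and *Tlr4*. With 1 library per condition the counting intervals do not cover the spread between cultures or litters, and clusters 1 and 0 share any effect of handling.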
